A study of Danio rerio with 18 samples.

Results

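The genes followed here serve the pigment cells of the zebrafish embryo other than its black melanophores: the silvery iridophores (pnp4a, ltk, tfec and ednrba) and the yellow xanthophores (gch2, pts, xdh and aox5). They were picked by symbol, ignoring case, from the deposited expression table of 25535 genes, and 7 of the 8 symbols matched 1 gene each. The symbol ednrba matched none. A single gene there carries the symbol EDNRB (ENSDARG00000089334), and the symbol table does not say which zebrafish copy of that receptor it is, so it is given under EDNRB and not counted among the 7. Poly(A) RNA of whole zebrafish (Danio rerio) embryos was sequenced in 18 libraries, each from a pool of 20 to 25 embryos, in 6 groups of 3 biological replicates. Embryos collected at 24 hours post fertilisation (hpf) comprised homozygous her3 knockout embryos (genotype her3 -/-, titled her3_38aa), wild-type WIK embryos injected with a her3 morpholino at the 1- to 4-cell stage, wild-type WIK embryos injected at that stage with a mismatch morpholino as injection control, and uninjected wild-type WIK embryos. Those collected at 72 hpf were her3 knockout and WIK embryos, without injected groups. A morpholino is an antisense oligomer that blocks the use of a transcript. Knockout embryos are represented by 1 line of unstated strain background in the sources used here. An effect of the allele and a difference between the line and the WIK strain cannot be told apart. The comparisons ask what loss of her3, a Hairy/E(spl)-family repressor gene, changes at each age, and whether a morpholino against it gives the same change.

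Pigment cells of the zebrafish arise from the neural crest. Iridophores reflect light from stacked crystals of guanine, so they draw on purine synthesis, and their specification in this fish needs the receptor tyrosine kinase encoded by ltk and the transcription factor encoded by tfec. Xanthophores make yellow pteridines from GTP and also store carotenoids. Purine synthesis yields purine nucleotides such as GTP, from which the pteridine pathway starts. Several enzymes of these pathways are also used outside pigment cells.

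The libraries held 14214136 to 23135995 reads, and 3 reads were worth 0.122 to 0.255 CPM (the usual read count scaled to library size, here to an effective size set by the authors). In 4 of the groups a library stood apart from its partners, namely WIK_24hpf replicate 1, her3_MO_24hpf replicate 1, mm_MO_24hpf replicate 3 and her3_KO_72hpf replicate 3, with a chi-square per degree of freedom of 6.03 to 39.6 against them, where the remaining pair of each of those groups had 3.73 to 4.94. These 4 libraries were picked from these same data. Fits without them have less spread within groups because of that choice, so calls gained there are no independent support. The her3 transcript (ENSDARG00000076857, listed as HES3) was higher in the libraries labelled knockout or her3 morpholino. At 24 hpf it averaged 22.1 CPM in those titled her3_38aa, 36.0 CPM after injection of the her3 morpholino, 7.88 CPM after the mismatch morpholino and 10.03 CPM in WIK, and at 72 hpf 2.15 CPM in those titled her3_38aa against 1.35 CPM in WIK. The cause of the higher her3 level was not tested. It does not check these labels, and each direction below follows them. Marker lists of neurons, muscle, epidermis, liver and each pigment cell class had reads in every group, and 1 of 13 macrophage markers had none in the knockout libraries of 24 hpf. In bulk RNA from whole embryos, fewer cells of a type and less RNA per cell cannot be told apart.

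At 24 hpf the 2 genes that fell in knockout embryos were pnp4a, whose enzyme releases purine bases of the kind that form guanine crystals, and xdh, the xanthine dehydrogenase of the purine and pteridine pathways. At 72 hpf 2 other genes rose in knockout embryos, gch2, whose enzyme opens pteridine synthesis, and aox5, an aldehyde oxidase used as a xanthophore marker. A gene was called when its adjusted p in limma, over the 20738 genes that reached 1 CPM in 3 or more libraries, was under 0.05. By that rule 2 of the 7 genes were called in the knockout at 24 hpf, both lower, where 12.6% of all tested genes were called and 6.63% were lower. In the knockout at 72 hpf 2 of 7 were called, both higher, where 10.8% of all tested genes were called and 5.11% were higher. The median log2 difference of the 7 genes was -0.012 at 24 hpf and 0.36 at 72 hpf, beside 0.027 and -0.0064 over all tested genes. The her3 morpholino called 0 of the 7 against the mismatch morpholino, where 3.35% of tested genes were called; 0 of the 7 had an unadjusted limma p under 0.05, voom also called 0, and EDNRB was called higher.

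**Figure D1:**
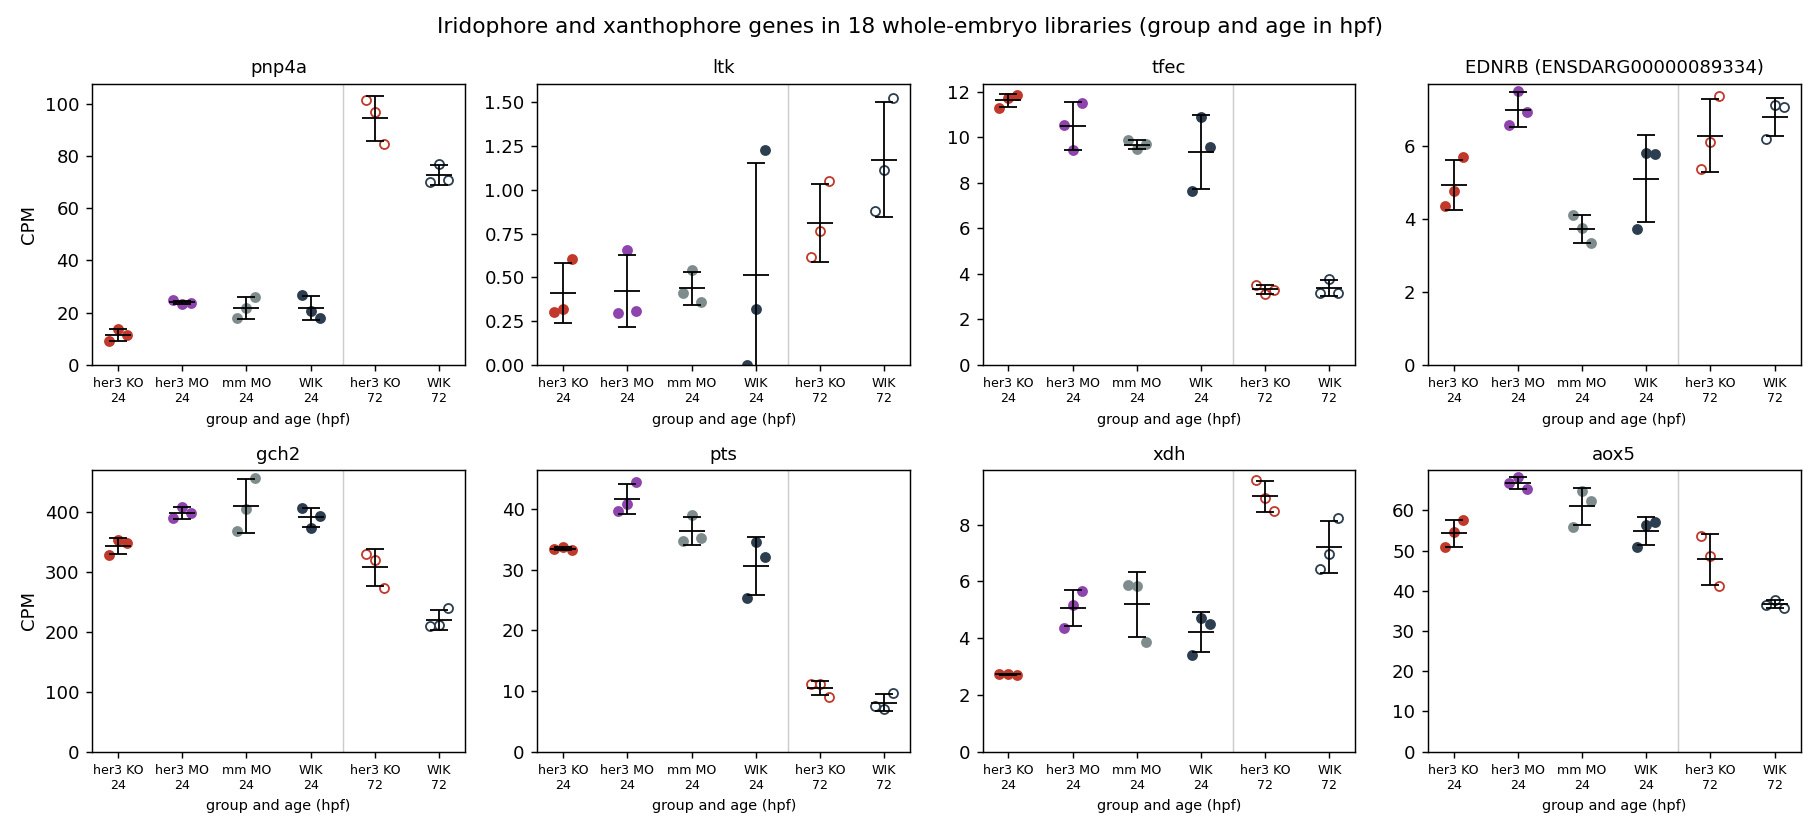
CPM of the 7 matched genes and of EDNRB (vertical axes, each gene on its own scale) in the 18 libraries, by group and age in hpf (horizontal axes). Points are libraries, bars give the mean and SD of 3, and lower bars that would pass below 0 are cut there; pnp4a is lowest in knockout embryos of 24 hpf and gch2 is lowest in WIK embryos of 72 hpf.

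pnp4a (ENSDARG00000057575) encodes a purine nucleoside phosphorylase of early iridophores. At 24 hpf its level was 9.05, 13.8 and 11.3 CPM in the knockout libraries, against 26.75, 20.5 and 18.0 CPM in WIK. The groups did not overlap, and every knockout library lay below the lowest library of any other group of that age. With the morpholinos it was 24.6, 23.5 and 23.8 CPM in the her3 group and 17.7, 21.8 and 25.9 CPM in the mismatch group. The means were 11.4 ± 2.38 CPM in knockout and 21.8 ± 4.50 CPM in WIK embryos (SD, n = 3 each), a ratio of 0.524. The log2 difference was -0.90 ± 0.16 (SE; limma adjusted p = 0.0011), and -0.75 without WIK_24hpf replicate 1, the highest WIK library (adjusted p = 0.0039). The call was lost when the fit held only these 2 groups (adjusted p = 0.066). The her3 morpholino differed by 0.15 ± 0.16 from the mismatch morpholino (95% interval -0.19 to 0.48, limma adjusted p = 0.73). The knockout effect less the morpholino effect was -1.05 ± 0.22 (limma adjusted p = 0.0071), so the effects themselves differed, and this contrast was called in 22 of 22 alternative settings. Of the 7 genes 1 was called in that contrast, where 7.66% of all tested genes were called and 3.8% were lower.

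At 72 hpf the order of pnp4a was the opposite. It stood at 101, 96.8 and 84.7 CPM in knockout libraries, against 70.0, 77.0 and 70.7 CPM in WIK, again without overlap. The log2 difference of 0.37 ± 0.16 did not pass the test (limma adjusted p = 0.16), with an interval of 0.039 to 0.71. It passed without the 4 libraries that stand apart (0.45, adjusted p = 0.031), with plain library totals (0.40, adjusted p = 0.048) and when only these groups were fitted (0.37, adjusted p = 0.0088). The knockout effect at 72 hpf less that at 24 hpf was 1.28 ± 0.22 (limma adjusted p = 0.0034), called in 22 of 22 alternatives, where 4.64% of all tested genes were called.

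ltk (ENSDARG00000042861), the receptor tyrosine kinase gene, was near the limit of detection, with 0 to 30 reads per library. Knockout libraries of 24 hpf held 0.300, 0.321 and 0.607 CPM, against 0.0, 0.317 and 1.23 CPM in WIK. The WIK libraries thus spanned the range of all others of that age, and WIK_24hpf replicate 1 had no read. At 72 hpf it stood at 0.614, 0.765 and 1.05 CPM in knockout embryos, against 0.878, 1.12 and 1.53 CPM in WIK. Only 4 libraries reached 1 CPM, 3 of them of 72 hpf, and the gene was tested because of them. No knockout or morpholino difference of ltk passed, and the log2 interval of knockout against WIK at 24 hpf, -0.67 to 0.69 at so few reads, was the widest of the 7 genes.

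tfec (ENSDARG00000098745, listed as TFEC) encodes a basic helix-loop-helix factor of the MITF family. At 24 hpf its level was 11.3, 11.7 and 11.9 CPM in knockout libraries, against 7.64, 10.9 and 9.57 CPM in WIK. All knockout libraries lay above all WIK libraries, with WIK_24hpf replicate 1 the lowest. The log2 difference of 0.31 ± 0.12 did not pass (limma adjusted p = 0.12), and it was 0.18 without WIK_24hpf replicate 1. It passed without WIK_24hpf replicate 2 (0.42, adjusted p = 0.046). At 72 hpf knockout embryos averaged 3.31 ± 0.211 CPM and WIK embryos 3.37 ± 0.353 CPM (SD, n = 3 each), and the libraries overlapped. The log2 interval of that difference was -0.28 to 0.25.

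EDNRB (ENSDARG00000089334), an endothelin receptor gene, was called between the 2 morpholinos, unlike the 7 matched genes. It stood at 6.57, 7.51 and 6.93 CPM with the her3 morpholino, against 4.12, 3.75 and 3.35 CPM with the mismatch morpholino. Knockout libraries of 24 hpf held 4.35, 4.76 and 5.70 CPM, against 3.74, 5.81 and 5.78 CPM in WIK. Every her3 morpholino library was above every other library of 24 hpf, and the mismatch libraries were low but overlapped WIK through WIK_24hpf replicate 1. The her3 morpholino exceeded the mismatch morpholino by 0.83 ± 0.16 on the log2 scale (limma adjusted p = 0.0089), a call lost without her3_MO_24hpf replicate 2 (0.78, adjusted p = 0.051). Against uninjected WIK the difference of 0.44 ± 0.16 did not pass (limma adjusted p = 0.075), though it passed without WIK_24hpf replicate 3 (0.54, adjusted p = 0.040) and with plain totals (0.61, adjusted p = 0.047). The mismatch morpholino differed from WIK by -0.38 ± 0.16 (limma adjusted p = 0.14), which did not pass. Without WIK_24hpf replicate 1 the mismatch value was -0.57 and passed (adjusted p = 0.022). The knockout difference from WIK was -0.029 ± 0.16 (95% interval -0.37 to 0.31), and the knockout effect less the morpholino effect was -0.85 ± 0.23 (limma adjusted p = 0.031), called in 12 of 22 alternatives. It was lost in 8 of the 12 fits that left out a library: without replicate 1 (-0.78, adjusted p = 0.086) or 2 (-0.83, adjusted p = 0.068) of her3_KO_24hpf, 2 (-0.81, adjusted p = 0.081) or 3 (-0.86, adjusted p = 0.061) of her3_MO_24hpf, 2 (-0.86, adjusted p = 0.064) or 3 (-0.79, adjusted p = 0.059) of mm_MO_24hpf, and 2 (-0.76, adjusted p = 0.073) or 3 (-0.76, adjusted p = 0.069) of WIK_24hpf.

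gch2 (ENSDARG00000099101) encodes the GTP cyclohydrolase that opens pteridine synthesis in xanthophores. At 72 hpf its level was 330, 320 and 273 CPM in knockout libraries, against 209, 211 and 239 CPM in WIK. The lowest knockout library, her3_KO_72hpf replicate 3, was still above the highest WIK library. The means were 307 ± 30.6 CPM in knockout and 220 ± 16.7 CPM in WIK embryos (SD, n = 3 each), a ratio of 1.40. The log2 difference was 0.48 ± 0.09 (limma adjusted p = 0.0017), called in 16 of 16 alternatives with values of 0.43 to 0.57. At 24 hpf gch2 stood at 327, 352 and 348 CPM in knockout libraries, against 406, 373 and 392.3 CPM in WIK. Here the knockout libraries were all below the WIK libraries, but the difference of -0.19 ± 0.09 did not pass (limma adjusted p = 0.18). The change of the knockout effect between the ages, 72 hpf less 24 hpf, was 0.67 ± 0.13 (limma adjusted p = 0.0056) and was called in 22 of 22 alternatives.

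aox5 (ENSDARG00000071475), the aldehyde oxidase gene, gave a similar picture at 72 hpf. It stood at 53.7, 48.7 and 41.2 CPM in knockout libraries, against 36.5, 37.8 and 35.7 CPM in WIK. The WIK libraries were close together and all lower, and the knockout libraries were spread, with her3_KO_72hpf replicate 3 the lowest. The log2 difference was 0.37 ± 0.09 (limma adjusted p = 0.012). The call was lost without her3_KO_72hpf replicate 1 (0.29, adjusted p = 0.073), without her3_KO_72hpf replicate 2 (0.36, adjusted p = 0.054) and without WIK_72hpf replicate 3 (0.35, adjusted p = 0.051). Without the 4 libraries that stand apart, which were picked from these same data, it was 0.48 (adjusted p = 0.00019). At 24 hpf knockout embryos averaged 54.3 ± 3.39 CPM and WIK embryos 54.8 ± 3.49 CPM (SD, n = 3 each), with a log2 interval of -0.20 to 0.18. The difference between the ages, 0.38 ± 0.13, did not pass (limma adjusted p = 0.098), and it passed without her3_KO_72hpf replicate 3 (0.49, adjusted p = 0.029).

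pts (ENSDARG00000045269, listed as PTS) encodes 6-pyruvoyltetrahydropterin synthase, the step after GTP cyclohydrolase. At 72 hpf it stood at 11.2, 11.2 and 9.06 CPM in knockout libraries, against 7.56, 7.01 and 9.66 CPM in WIK. The groups overlapped through 1 library of each, and the log2 difference of 0.36 ± 0.13 did not pass (limma adjusted p = 0.081). It passed without her3_KO_72hpf replicate 3 (0.46, adjusted p = 0.048) and without WIK_72hpf replicate 3 (0.49, adjusted p = 0.025). At 24 hpf knockout embryos averaged 33.5 ± 0.273 CPM and WIK embryos 30.6 ± 4.79 CPM (SD, n = 3 each). WIK_24hpf replicate 1 was the lowest library of that age at 25.3 CPM, and the log2 interval of the knockout difference was -0.13 to 0.40.

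xdh (ENSDARG00000055240, listed as XDH) encodes xanthine dehydrogenase, which acts both on purines and in the making of yellow pteridines. At 24 hpf it stood at 2.75, 2.73 and 2.71 CPM in knockout libraries, against 3.40, 4.70 and 4.50 CPM in WIK. The knockout libraries were the lowest of that age, without overlap with any other group. The log2 difference of -0.53 ± 0.16 was called (limma adjusted p = 0.040) in the fit of all groups and in 7 of 16 alternatives. It lost its call without her3_KO_24hpf replicate 1 (-0.53, adjusted p = 0.10), replicate 2 (-0.53, adjusted p = 0.091) or replicate 3 (-0.53, adjusted p = 0.10), and without WIK_24hpf replicate 2 (-0.45, adjusted p = 0.11) or replicate 3 (-0.48, adjusted p = 0.079). Without WIK_24hpf replicate 1, the lowest WIK library, it was -0.66 (adjusted p = 0.015). At 72 hpf the order was the opposite, 9.57, 8.95 and 8.47 CPM in knockout libraries against 6.44, 6.96 and 8.23 CPM in WIK, without overlap. That log2 difference of 0.30 ± 0.16 did not pass (limma adjusted p = 0.28). The difference between the ages, 0.83 ± 0.23, was called (limma adjusted p = 0.046) in the fit of all groups and in 6 of 22 alternatives. It was lost in 10 of the 12 fits that left out a library, with values of 0.76 to 0.88 and adjusted p of 0.066 to 0.10, and kept without WIK_24hpf replicate 1 or WIK_72hpf replicate 3. With plain library totals its adjusted p was 0.11.

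**Figure D2:**
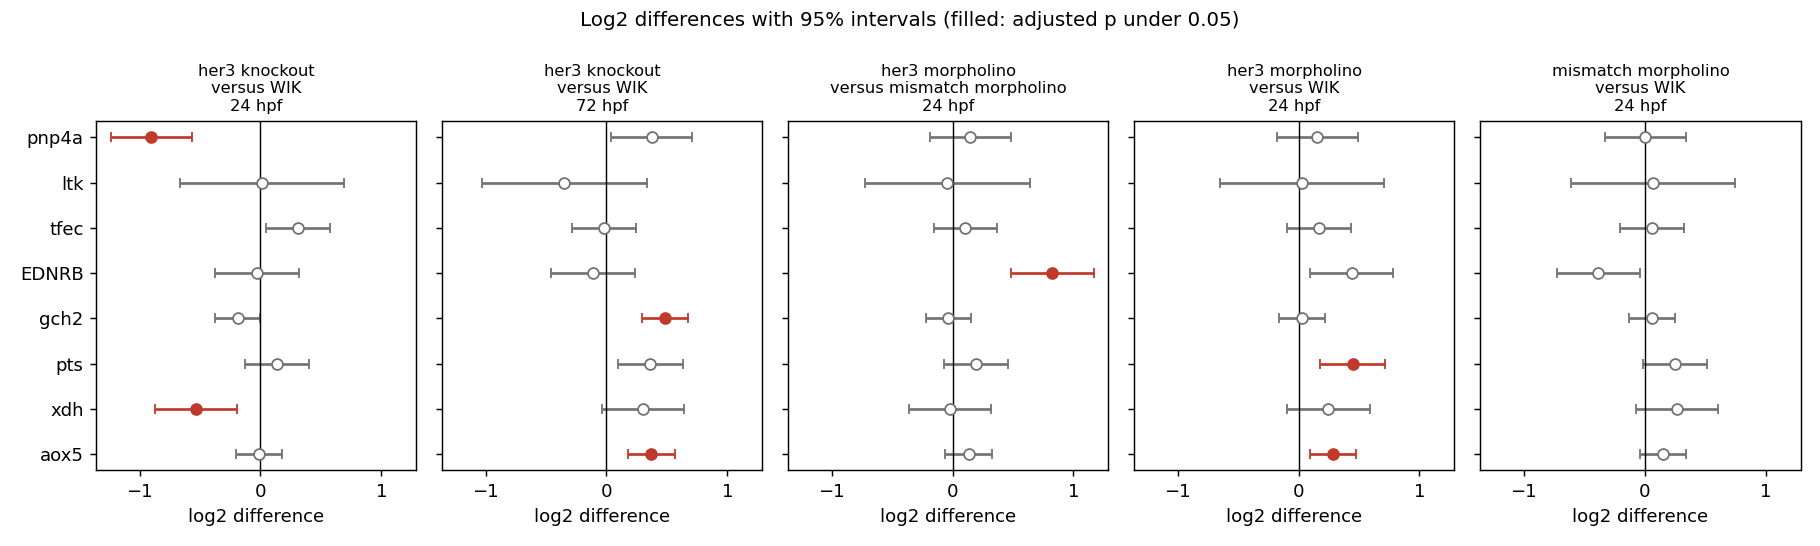
Log2 differences on the log2(CPM + 0.5) scale (horizontal axes) with 95% intervals for each gene (rows) in 5 comparisons (panels), n = 3 libraries a group. Filled points passed an adjusted p of 0.05: pnp4a and xdh lie below 0 in knockout embryos of 24 hpf, gch2 and aox5 above 0 at 72 hpf, EDNRB above 0 with the her3 morpholino against the mismatch morpholino, and pts and aox5 above 0 with the her3 morpholino against WIK.

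Of the 7 genes, then, 3 had a knockout effect that differed between the ages: pnp4a, gch2 and xdh. In each of them the mean knockout level was below WIK at 24 hpf and above it at 72 hpf. None of the 3 passed against WIK at both ages. pnp4a and xdh did not pass at 72 hpf (limma adjusted p = 0.16 and 0.28), and gch2 did not at 24 hpf (adjusted p = 0.18). For xdh the contrast between the ages was called in 6 of 22 alternatives. The difference between the ages was higher for 3 of 7 and lower for 0, where 2.5% of all tested genes were higher. Most tested genes changed with age itself, and the counts of these genes are given beside those shares. In WIK, 72 hpf against 24 hpf, 7 of 7 were called, 3 higher and 4 lower, where 74.5% of all tested genes were called, 38.6% higher and 36% lower. In knockout embryos 4 of 7 were called, 2 higher and 2 lower, where 74.9% of all tested genes were called, 37.1% higher and 37.8% lower. With plain library totals the median of all tested genes in these comparisons moved by 0.13 in knockout embryos and 0.15 in WIK.

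With age the iridophore gene pnp4a rose by 3.01 ± 0.16 in knockout embryos and by 1.73 ± 0.16 in WIK on the log2 scale (limma adjusted p = 2.9e-11 and 3.4e-08), that is to 94.3 CPM at 72 hpf against 11.4 CPM at 24 hpf in knockout, and to 72.6 CPM against 21.8 CPM in WIK. The transcription factor gene tfec went the other way and fell by 1.67 ± 0.12 in knockout embryos and by 1.34 ± 0.12 in WIK (limma adjusted p = 2.5e-09 and 4.1e-08). ltk had a difference of 0.53 ± 0.32 in knockout embryos (limma adjusted p = 0.14) and of 0.89 ± 0.32 in WIK (limma adjusted p = 0.019). The WIK call rested on single libraries: without WIK_24hpf replicate 1, which had no read, it was 0.48 (adjusted p = 0.13), without WIK_24hpf replicate 2 it was 0.83 (adjusted p = 0.054) and without WIK_72hpf replicate 3 it was 0.75 (adjusted p = 0.077). EDNRB differed by 0.32 ± 0.16 in knockout embryos (limma adjusted p = 0.087, and 0.047 without her3_KO_72hpf replicate 1) and by 0.40 ± 0.16 in WIK (limma adjusted p = 0.035). The WIK value of EDNRB was 0.21 without WIK_24hpf replicate 1 (adjusted p = 0.20), and its call was also lost without WIK_72hpf replicate 2 (adjusted p = 0.091) or replicate 3 (adjusted p = 0.088) and with the replicate number as a block (0.36, adjusted p = 0.15).

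Among the xanthophore genes, pts fell by 1.63 ± 0.13 in knockout embryos and by 1.86 ± 0.13 in WIK (limma adjusted p = 4.0e-09 and 7.8e-10). xdh rose by 1.55 ± 0.16 in knockout embryos and by 0.72 ± 0.16 in WIK (limma adjusted p = 1.6e-07 and 0.00069). gch2 fell by 0.83 ± 0.09 in WIK (limma adjusted p = 2.5e-07), and its knockout difference of -0.16 ± 0.09 did not pass (limma adjusted p = 0.12). The difference between those changes is the contrast of 0.67 given above. aox5 fell by 0.57 ± 0.09 in WIK (limma adjusted p = 2.3e-05), and its knockout difference was -0.19 ± 0.09 (limma adjusted p = 0.071). That knockout value passed without her3_KO_72hpf replicate 1 (-0.27, adjusted p = 0.014) and without her3_KO_24hpf replicate 1 (-0.23, adjusted p = 0.050), and it was -0.022 with the replicate number as a block.

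**Figure D3:**
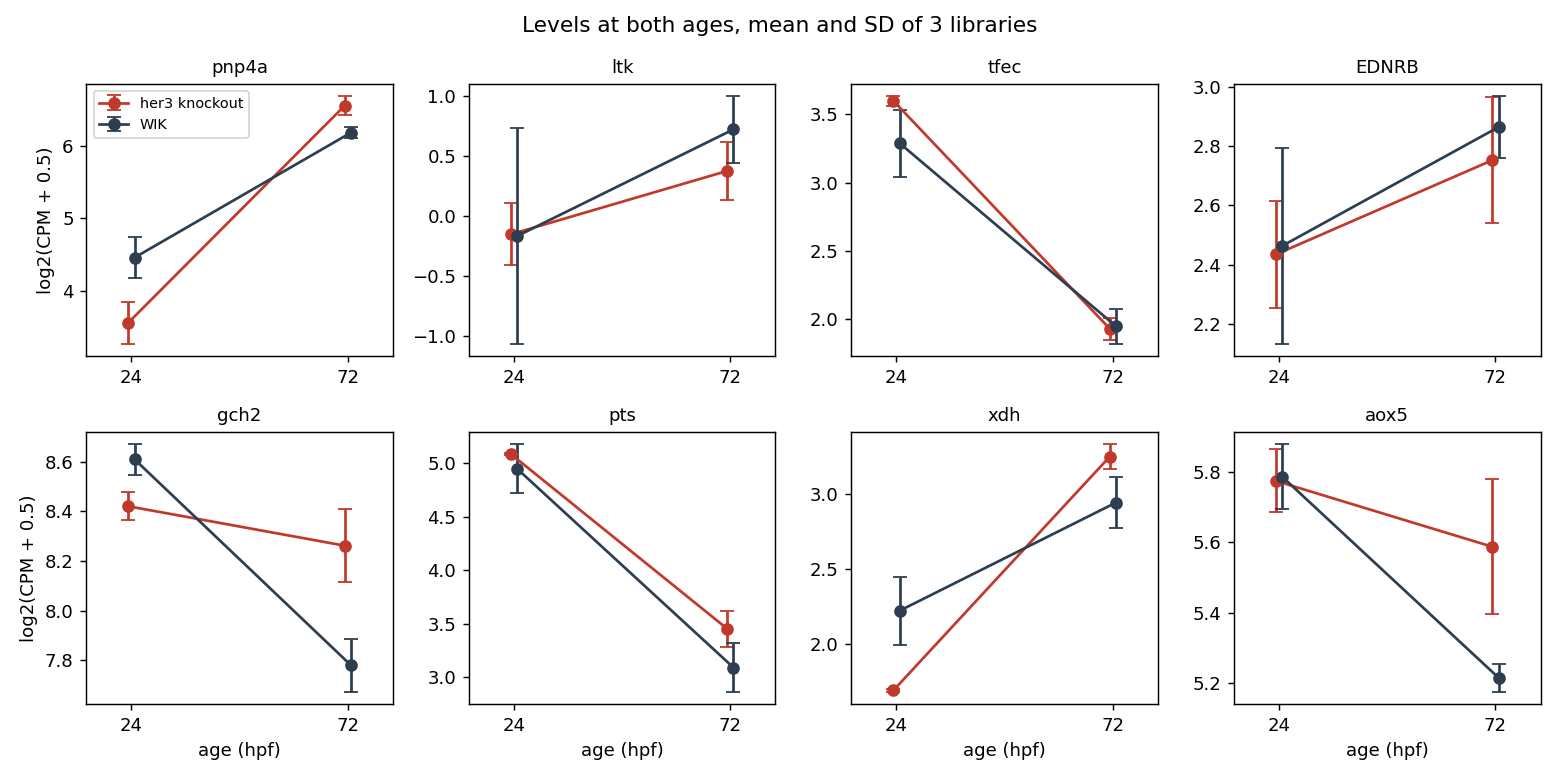
Mean and SD of log2(CPM + 0.5) over 3 libraries (vertical axes, each gene on its own scale) at 24 and 72 hpf (horizontal axes) in her3 knockout and WIK embryos. For pnp4a, gch2 and xdh the knockout means lie below WIK at 24 hpf and above WIK at 72 hpf, and tfec and pts are lower at 72 hpf in both genotypes.

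Between the her3 and the mismatch morpholino 0 of the 7 genes were called, where 3.35% of all tested genes were called. In the knockout comparisons the shares of all tested genes were larger, 12.6% at 24 hpf and 10.8% at 72 hpf. Against the mismatch morpholino the 7 log2 differences ran from -0.042 for ltk to 0.19 for pts. pts stood at 39.7, 40.78 and 44.5 CPM with the her3 morpholino, against 34.8, 39.0 and 35.2 CPM with the mismatch morpholino and 25.3, 34.5 and 32.1 CPM in WIK. The her3 morpholino libraries were the highest for pts, and the difference of 0.19 ± 0.13 from the mismatch group did not pass (limma adjusted p = 0.52). aox5 stood at 66.7, 68.3 and 65.4 CPM with the her3 morpholino, against 55.8, 64.9 and 62.3 CPM with the mismatch morpholino and 50.8, 56.4 and 57.2 CPM in WIK. It too was highest in all 3 her3 morpholino libraries, with a difference of 0.13 ± 0.09 from the mismatch group (limma adjusted p = 0.54).

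Against uninjected WIK, 2 of the 7 were called with the her3 morpholino, both higher, where 14.5% of all tested genes were called and 6.71% were higher. They were pts, at 0.45 ± 0.13 (limma adjusted p = 0.029), and aox5, at 0.29 ± 0.09 (limma adjusted p = 0.045). Neither call held in every alternative. That of pts was lost without WIK_24hpf replicate 1 (0.32, adjusted p = 0.13), her3_MO_24hpf replicate 2 (0.46, adjusted p = 0.081) or replicate 3 (0.40, adjusted p = 0.10), and with the replicate number as a block (adjusted p = 0.058). That of aox5 was lost in 5 of the 6 fits that left out a library, with 0.23 (adjusted p = 0.16) without WIK_24hpf replicate 1, 0.31 (adjusted p = 0.053) without WIK_24hpf replicate 2, 0.29 (adjusted p = 0.072) without her3_MO_24hpf replicate 1, 0.27 (adjusted p = 0.14) without replicate 2 and 0.30 (adjusted p = 0.090) without replicate 3. Scaling mattered here as well: with plain library totals the median of all tested genes moved by 0.15, and 80.3% of the calls were higher, against 46.4% with the deposited scaling. The mismatch morpholino called 0 of the 7 genes against WIK, where 10.5% of all tested genes were called; 0 of the 7 had an unadjusted limma p under 0.05 and voom also called 0. With plain totals that comparison's median moved by 0.10 and 71.2% of its calls were higher, against 47.6% as deposited, and for her3 against mismatch morpholino the shares were 53.7% and 43.4%. The 3 comparisons at 24 hpf that use WIK share its libraries.

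Ranked by mean level over the groups of 24 hpf, pnp4a, gch2 and xdh had the knockout group lowest, separated from the next group, and ltk and aox5 had it lowest with overlap. tfec had the knockout group highest, with overlap of its neighbour. At 72 hpf the knockout group was above WIK without overlap for pnp4a, gch2, xdh and aox5, and with overlap for pts. For ltk, tfec and EDNRB the WIK group was higher at 72 hpf, with overlap. The share of all tested genes whose groups separate in this way was not counted, so these ranks are a description only. At 24 hpf tfec in the knockout was also separated from WIK, though not from its neighbour. Of the separated differences of knockout from WIK, those of tfec and gch2 at 24 hpf did not pass (limma adjusted p = 0.12 and 0.18). Those of pnp4a and xdh at 72 hpf did not pass either (adjusted p = 0.16 and 0.28).

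As a description of likeness, the 6 group means of log2(CPM + 0.5) of each gene, centred, were compared with those of every tested gene that has a symbol, by the root mean square difference over the 6 groups. gch2 and aox5 had the most similar pair of profiles among the 7 genes, at 0.0912. Over all genes, those nearest to gch2 were SAP130 (0.0594), csf1a (0.0666), which encodes a ligand of the xanthophore receptor Csf1ra, and chtopb (0.0690). Those nearest to aox5 were znf106b, PUS10 and CEP97 (0.0609 to 0.0732). pnp4a, whose group means spanned 3.01, had clmnb (0.122), SOCS1 (0.144) and KLHL17 (0.169) nearest. tfec had NUP85 (0.0290), DDX52 and FAAP24, pts had mastl (0.0735), slx4ip and F2RL3, and xdh had cyb5r4 (0.0955), B3GAT1 (ENSDARG00000113928) and prl. ltk, at its few reads, had tmc4 (0.0250), MT-CO1 and cmya5, and EDNRB had KLHDC3 (0.0615), STING1 and DNAH6.

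Of the listed paralogs and related genes, pnp4b rose and GCH1 fell in knockout embryos of 24 hpf. MITF (-0.055 ± 0.11, limma adjusted p = 0.78) and EDNRA (-0.34 ± 0.13, adjusted p = 0.086) did not pass there. Neither did the genes listed as SPR, ENSDARG00000004406 (-0.085 ± 0.11, adjusted p = 0.63) and ENSDARG00000058553 (0.21 ± 0.14, adjusted p = 0.33). pnp4b (ENSDARG00000029230), the nearest paralog of pnp4a, stood at 1.45, 0.856 and 0.654 CPM in knockout libraries of 24 hpf, against 0.0, 0.106 and 0.154 CPM in WIK. It rose where pnp4a fell, by 1.31 ± 0.22 on the log2 scale (limma adjusted p = 0.00067). It had 0 to 33 reads per library and reached 1 CPM only in 1 knockout library of 24 hpf and in libraries of 72 hpf, and at such counts the size of the difference depends on the pseudocount. GCH1 (ENSDARG00000070453), the other GTP cyclohydrolase gene, fell to 4.25, 3.75 and 3.46 CPM in knockout libraries of 24 hpf, against 9.42, 5.49 and 7.67 CPM in WIK. Its log2 difference was -0.87 ± 0.15 (limma adjusted p = 0.0010), and at 72 hpf the means were 18.5 CPM in knockout and 17.9 CPM in WIK embryos. Its knockout effect differed between the ages by 0.92 ± 0.21 (limma adjusted p = 0.021). aox6, next of kin to aox5, averaged 1.25 CPM in knockout and 1.09 CPM in WIK embryos at 24 hpf, and 7.25 CPM in knockout and 8.13 CPM in WIK embryos at 72 hpf, and its knockout difference passed at neither age. ALK, the kinase gene related to ltk, averaged 0.215 CPM in knockout and 0.361 CPM in WIK embryos at 24 hpf, and 13.1 CPM in knockout and 10.6 CPM in WIK embryos at 72 hpf, and it too passed at neither age between genotypes. Where such copies share sequence, reads may be split between them, and how multi-mapping reads were counted is not given in the sources used here.

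**Figure D4:**
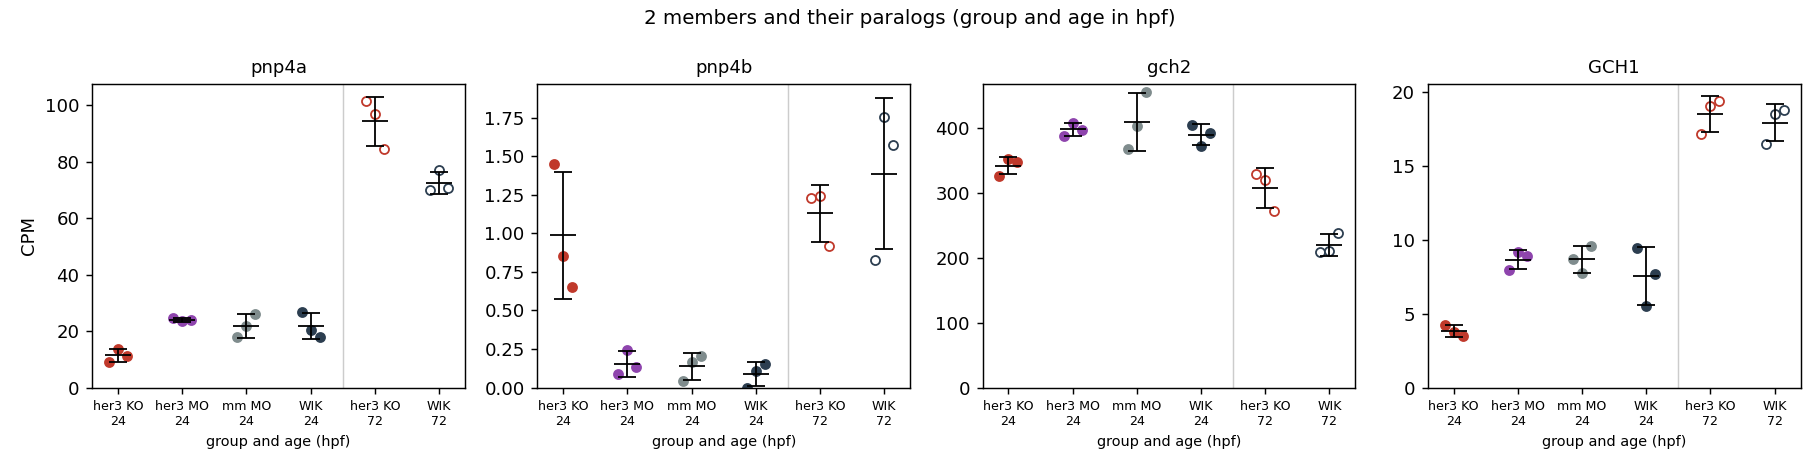
CPM (vertical axes, each gene on its own scale) of pnp4a and pnp4b and of gch2 and GCH1 in the 18 libraries by group and age in hpf (horizontal axes), with mean and SD of 3. At 24 hpf knockout embryos are lowest for pnp4a, gch2 and GCH1 and highest for pnp4b.

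Wider gene lists for the same cells and pathways were counted to set beside the 7 genes. They were matched by symbol, they share genes with each other, and their counts carry no test as sets. In knockout embryos of 24 hpf, where 12.6% of all tested genes were called and 6.63% were lower, the iridophore list had 1 gene higher and 5 lower of 26 tested. Lower were apoda.1 (-0.99 ± 0.20, limma adjusted p = 0.0031), pnp4a, defbl1 (-0.75 ± 0.20, adjusted p = 0.023), CRIP2 (ENSDARG00000033201, -0.51 ± 0.15, adjusted p = 0.030) and AKR1B1 (ENSDARG00000006215, -0.42 ± 0.12, adjusted p = 0.027), and higher was FOXD3, a neural crest transcription factor gene (0.52 ± 0.15, adjusted p = 0.031). A further gene listed as AKR1B1 (ENSDARG00000045598, -0.36 ± 0.18, adjusted p = 0.19) and a further CRIP2 (ENSDARG00000070670, 0.083 ± 0.14, adjusted p = 0.73) did not pass. The median of that list was -0.040, beside 0.027 over all tested genes. Without WIK_24hpf replicate 1 the count was 0 higher and 2 lower, and without the 4 libraries that stand apart it was 1 higher and 6 lower. It was 1 higher and 2 lower with the replicate number as a block, and 1 higher and 0 lower when only these groups were fitted.

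The xanthophore list had 1 higher and 6 lower of 31 in the same comparison, to be read against the same shares of all tested genes. Its lower genes included si:dkey-251i10.2 (-0.99 ± 0.14, limma adjusted p = 0.00013), csf1b (-0.58 ± 0.16, adjusted p = 0.021), a Csf1 receptor ligand, and xdh, and its higher gene was SOX5. Also lower were both copies of the melanin enzyme gene TYRP1, which share that symbol. They stood at -0.60 ± 0.08 for ENSDARG00000056151 (adjusted p = 8.2e-05) and -0.33 ± 0.09 for ENSDARG00000029204 (adjusted p = 0.016). Both copies are counted again in the melanophore list. With plain totals the count was 0 higher and 3 lower, with the replicate block 0 higher and 4 lower, and with only these groups 0 higher and 2 lower. Pterin synthesis had 0 higher and 2 lower of 14, namely GCH1 and xdh. Purine synthesis had 3 higher and 5 lower of 36, with pnp4b and GMPS (0.44 ± 0.06, adjusted p = 6.7e-05) among the higher and mthfd2 (-0.92 ± 0.15, adjusted p = 0.00056) and ADA (-0.71 ± 0.12, adjusted p = 0.00075) among the lower. Purine breakdown had 1 higher and 3 lower of 16, with urad (-1.29 ± 0.35, adjusted p = 0.024) the largest. Of 7 endothelin genes limma and voom called 0, with 3 at an unadjusted limma p under 0.05, and of 9 MITF and ALK family genes 1 was lower, TFEB.

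Lists of other pigmented cells and of the neural crest were counted in the same comparison, where 12.6% of all tested genes were called and 6.63% were lower. The melanophore list had 0 higher and 7 lower of 23, with 16 that did not pass, and a median of -0.056. The lower genes included MLPH (-0.85 ± 0.24, limma adjusted p = 0.027), TYRP1 and DCT (-0.47 ± 0.08, adjusted p = 0.00083). It had 0 higher and 3 lower without WIK_24hpf replicate 1, and 0 higher and 4 lower with plain totals, with voom or with the replicate number as a block. The summed level of 10 melanophore markers was 328 to 357 CPM in knockout libraries, against 419 to 442 CPM in WIK, with no marker at 0. That of 5 retinal pigment epithelium markers overlapped, at 149 to 160 CPM in knockout libraries, against 156 to 183 CPM in WIK, as did that of 7 iridophore markers, at 92.8 to 102 CPM in knockout libraries, against 95.5 to 125 CPM in WIK. That of 8 xanthophore markers was 477 to 509 CPM in knockout libraries, against 547 to 562 CPM in WIK, without overlap. Most of that sum is gch2, at 342 CPM in knockout and 390 CPM in WIK embryos, whose own difference did not pass (limma adjusted p = 0.18). The xanthophore markers also include aox5 and xdh, and the iridophore markers include pnp4a, ltk and tfec, so these sums are not separate from the members. The sum of 6 neural crest markers was 347 to 355 CPM in knockout libraries, against 318 to 350 CPM in WIK, with overlap. The retinal pigment epithelium list had 0 higher and 5 lower of 12, of which DCT and pmela are also counted in the melanophore list. RGR was the largest (-1.43 ± 0.20, adjusted p = 0.00014). Also lower were genes that share the symbol RPE65, ENSDARG00000054420 (-0.85 ± 0.23, adjusted p = 0.025) and ENSDARG00000094752 (-0.79 ± 0.16, adjusted p = 0.0036). A further gene listed as RPE65 (ENSDARG00000007480, -0.26 ± 0.19, adjusted p = 0.38) did not pass. The neural crest list had 3 higher and 1 lower of 20, with crestin the largest (0.91 ± 0.14, adjusted p = 0.00048). The part of these other cells in the lower pnp4a and xdh was not tested.

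**Figure D5:**
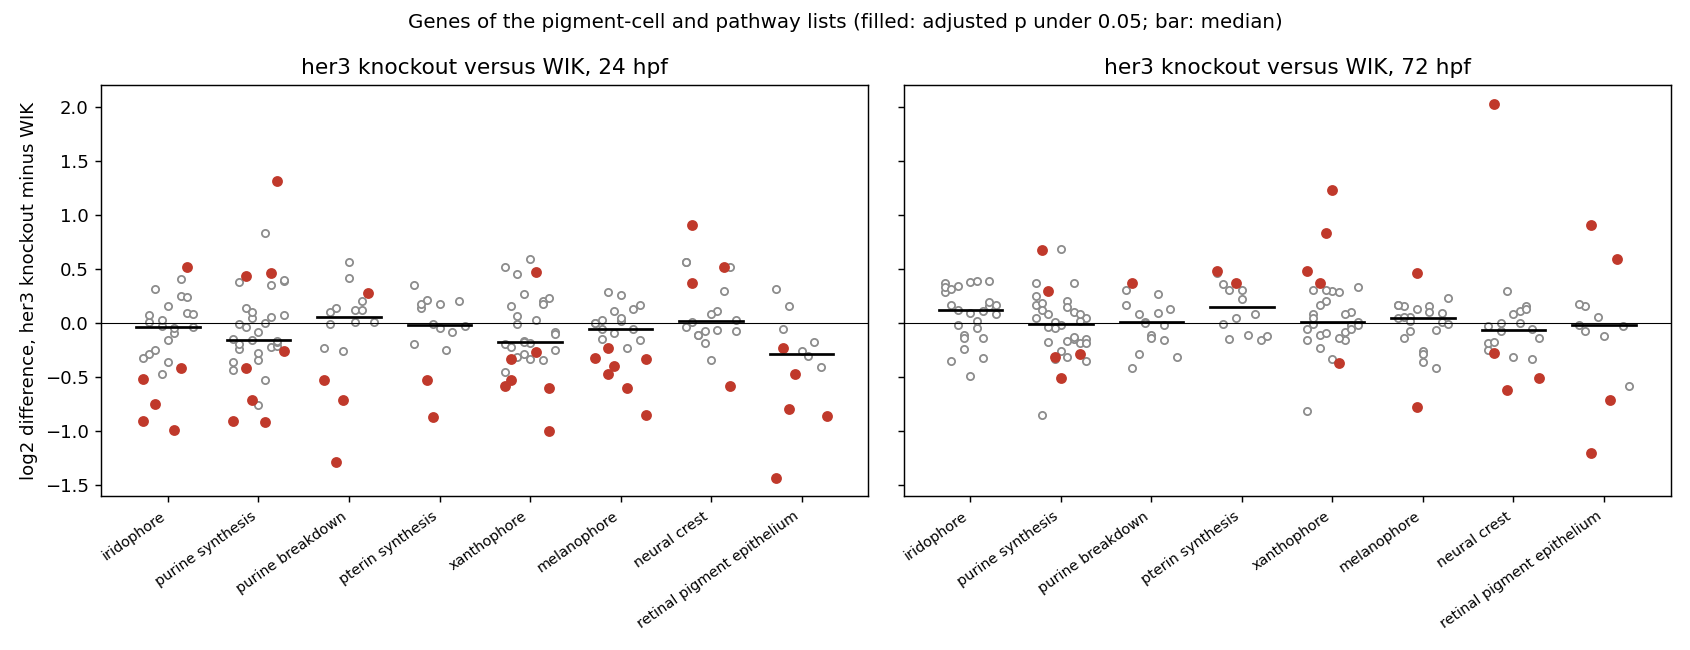
Log2 difference of knockout from WIK embryos (vertical axis) for each tested gene of 8 lists (horizontal axis) at 24 hpf (left) and 72 hpf (right). Filled points passed an adjusted p of 0.05 and bars are list medians; the melanophore list has 7 genes lower at 24 hpf, and the iridophore list has none called at 72 hpf.

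In knockout embryos of 72 hpf 10.8% of all tested genes were called and 5.11% were higher. The iridophore list had 0 of 26 genes called by limma, with 5 at an unadjusted p under 0.05, and voom called 1 higher and 1 lower. The count was 5 higher and 1 lower when only these groups were fitted and 3 higher and 1 lower without the 4 libraries that stand apart. The xanthophore list had 4 higher and 1 lower of 31: plin6, a lipid droplet gene (1.24 ± 0.14, limma adjusted p = 2.2e-05), BCO1, a carotenoid oxygenase gene (0.83 ± 0.14, adjusted p = 0.00074), gch2 and aox5 were higher, and slc2a15b, a sugar transporter gene (-0.37 ± 0.08, adjusted p = 0.0072), was lower. Pterin synthesis had 2 higher and 0 lower of 14, gch2 and aox5 themselves. Purine synthesis had 2 higher and 3 lower of 36. The melanophore list had 1 higher and 1 lower of 23, TFAP2E and trpm1b, and its marker sum was 1494 to 1574 CPM in knockout libraries, against 1479 to 1534 CPM in WIK, with overlap. The neural crest list had 1 higher and 3 lower of 20: crestin was higher by 2.03 ± 0.14 (adjusted p = 1.1e-07), and SOX9 (ENSDARG00000043923, -0.62 ± 0.08, adjusted p = 6.5e-05), twist1a (-0.51 ± 0.10, adjusted p = 0.0026) and MCAM (-0.27 ± 0.08, adjusted p = 0.032) were lower. The retinal pigment epithelium list had 2 higher and 2 lower of 12.

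The knockout effect differed between the ages for 4.64% of all tested genes, with 2.5% higher at 72 hpf. In the iridophore list it did so for 4 of 26 genes, all with a higher effect at 72 hpf: apoda.1 (1.38 ± 0.28, limma adjusted p = 0.0090), pnp4a, defbl1 (1.096 ± 0.29, adjusted p = 0.040) and CRIP2 (0.80 ± 0.21, adjusted p = 0.036). The count was 2 without WIK_24hpf replicate 1 or with the replicate block, and 5 without the 4 libraries that stand apart. In the xanthophore list 6 of 31 were higher and 0 lower, led by plin6 (1.56 ± 0.20, adjusted p = 0.00027) and BCO1 (1.12 ± 0.20, adjusted p = 0.0036), with gch2 and xdh among them. TYRP1 (ENSDARG00000056151) is also among them and is counted again in the melanophore list. The retinal pigment epithelium list had 3 higher and 0 lower of 12, the melanophore list 3 higher and 1 lower of 23 and the neural crest list 1 higher and 2 lower of 20. The list medians were 0.13 (iridophore), 0.094 (xanthophore), 0.24 (retinal pigment epithelium), 0.17 (melanophore) and -0.17 (neural crest), beside -0.034 over all tested genes.

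The same lists were counted for age itself, where 74.9% of all tested genes were called in knockout embryos, 37.1% higher and 37.8% lower, and 74.5% in WIK, 38.6% higher and 36% lower. No enrichment was tested. Of 36 purine synthesis genes 10 were higher and 20 lower in knockout embryos, and 11 were higher and 19 lower in WIK. GART, an enzyme gene of the purine pathway, fell by 3.52 ± 0.16 in knockout embryos and by 3.77 ± 0.16 in WIK (limma adjusted p = 4.9e-12 and 2.3e-12). Of 26 iridophore list genes 15 were higher and 5 lower in knockout embryos, and 16 were higher and 5 lower in WIK, with apoda.1 higher by 4.72 ± 0.20 in knockout embryos and by 3.335 ± 0.20 in WIK.

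With the her3 morpholino against the mismatch morpholino, where 3.35% of all tested genes were called, the iridophore list had 1 gene called, EDNRB, which was higher, and pterin synthesis had 0 by limma and by voom, with 1 at an unadjusted limma p under 0.05. The xanthophore list had 3 higher and 1 lower of 31. Higher were slc2a11b (0.61 ± 0.13, limma adjusted p = 0.019) and the 2 TYRP1 genes, which are also in the melanophore list, and lower was RGS2 (-0.60 ± 0.16, adjusted p = 0.045). Against WIK, the mismatch morpholino had slc2a11b lower (-0.47, limma adjusted p = 0.035) and RGS2 higher (0.92, adjusted p = 0.0014). With the her3 morpholino against WIK neither passed (0.14, adjusted p = 0.48, and 0.32, adjusted p = 0.16), while both TYRP1 genes were higher (adjusted p = 3.0e-05 for ENSDARG00000029204 and 0.0017 for ENSDARG00000056151). The melanophore list had 4 higher and 0 lower of 23, among them the 2 TYRP1 genes (0.64 ± 0.09 for ENSDARG00000029204 and 0.44 ± 0.08 for ENSDARG00000056151) and DCT (0.49 ± 0.08, limma adjusted p = 0.0019), and 8 higher and 0 lower without the 4 libraries that stand apart. Its marker sum was 555 to 585 CPM with the her3 morpholino, against 376 to 463 CPM with the mismatch morpholino. In the purine breakdown list uox, the urate oxidase gene, was higher by 1.44 ± 0.20 (adjusted p = 0.00060) and GDA, the guanine deaminase gene, was lower (-0.99 ± 0.21, adjusted p = 0.015). Against WIK, uox was lower with the mismatch morpholino (-1.57, limma adjusted p = 0.00012) and did not pass with the her3 morpholino (-0.13, adjusted p = 0.68). GDA was lower than WIK with the her3 morpholino (-0.68, adjusted p = 0.043) and did not pass with the mismatch morpholino (0.32, adjusted p = 0.36). The knockout effect differed from the morpholino effect for 7.66% of all tested genes, and 3.8% had the lower effect in the knockout. By list it was higher for 1 and lower for 4 of 26 in the iridophore list, 0 and 5 of 31 in the xanthophore list, 0 and 6 of 23 in the melanophore list, 1 and 2 of 12 in the retinal pigment epithelium list, 2 and 0 of 20 in the neural crest list and 4 and 2 of 36 in purine synthesis. The 2 TYRP1 genes are counted as lower in both the xanthophore and the melanophore list.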

How the data were processed

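The deposited table gives, for 18 libraries and 25535 Ensembl genes, CPM (read counts relative to library size) that the authors scaled to an effective library size, as its column sums of 912145 to 1206849 show. Per the submitters' processing notes, HISAT2 2.2.1, SAMtools 1.10, featureCounts 2.0.2 and edgeR 3.34.0 were used with danRer11. The sources used here give no settings, strand or handling of reads that map to several places. The kit was directional with poly(A) selection and an ERCC spike-in, per the labels' protocols, and embryos were dechorionated at 24 hpf. Every value (100%, tolerance 0.01) was a whole multiple of what 1 read is worth, which gave 14214136 to 23135995 reads per library.

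The 20738 genes that reached 1 CPM in 3 or more libraries were tested with limma 3.58.1 in R 4.3.3 on log2(CPM + 0.5), with 1 coefficient per group, 12 residual degrees of freedom and moderated, trended and robust variances. Fold changes on that scale understate those of low genes. Adjusted p-values are Benjamini-Hochberg over all tested genes within a comparison, with 0.05 as threshold. A count model had been planned, but the table holds CPM, so the limma test stands in its place. Replicates are biological per the series text, without more detail. The spread behind each p-value is that between pools of embryos within a group, shared over the 6 groups and moderated. It is not the spread of the compared groups alone, and fits of only those groups gave other counts, listed below. The script was tested on simulated data with known changes. The members and gene lists were chosen with earlier results of these data known. Named genes are all members, up to 4 called genes per list with the largest absolute difference, listed paralogs and the 3 nearest profiles of each member. List genes were matched by symbol or its stem, so copies with the same symbol were not told apart. Alternatives changed the pseudocount, filter, scaling, groups in the fit, replicate block, test and libraries.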

Additional observations from a re-analysis of the deposited data

Results flagged for a closer look

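The knockout effect on pnp4a was higher at 72 hpf than at 24 hpf by 1.28 on the log2 scale, by a limma test of the difference itself (adjusted p = 0.0034). The same test set gch2 apart, by 0.67 (adjusted p = 0.0056), and xdh, by 0.83 (adjusted p = 0.046), the last of which kept its call in 6 of 22 alternatives. At 24 hpf the knockout effect on pnp4a less the morpholino effect was -1.05 (limma adjusted p = 0.0071), and that on EDNRB was -0.85 (adjusted p = 0.031). The pnp4a contrast kept its call in 22 of 22 alternatives and the EDNRB contrast in 12 of 22. The groups hold 3 libraries each, so no gene-by-gene search for single outlying values was made within them. Whole libraries were compared within groups, and the 4 that stood apart are named above.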

How the results depend on the processing

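Of 1239 values of the genes under alternatives, 1096 kept direction and side of the threshold, 62 lost a call, 22 gained one and 59 changed sign, with no called value among the 59; the cause was not tested. The edgeR test planned for raw counts was not run, and ltk has no value under the 5 CPM filter. With only the compared groups, the genes called numbered 906 against 2620 (knockout, 24 hpf), 3528 against 2245 (knockout, 72 hpf), 182 against 694 (her3 against mismatch morpholino), 70 against 2997 (her3 morpholino against WIK), 154 against 2171 (mismatch morpholino against WIK) and 981 against 1589 (knockout less morpholino effect). Members called then numbered 0 in the knockout at 24 hpf and 0 in her3 morpholino against WIK, where 2 were called in each. In the knockout at 24 hpf 1 member was called with plain totals, the replicate block or voom. In her3 morpholino against WIK 1 was called with no filter, median-of-ratios scaling or the block. Without the 4 libraries that stand apart, genes called were 4645 (knockout, 72 hpf), 2678 (her3 against mismatch morpholino), 3399 (mismatch morpholino against WIK), 2237 against 963 (difference between the ages) and 3759 (knockout less morpholino effect), and members 4 in the knockout at 72 hpf and 2 against 1 in the last.

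Same-numbered libraries did not all deviate together (r from -0.58 to 0.32 over the comparisons), and 1 of 6 libraries correlated best with its own number in the knockout comparison at 24 hpf, 5 at 72 hpf, 5 in her3 against mismatch morpholino, 2 in her3 morpholino against WIK and 0 in mismatch morpholino against WIK. The samples share only a number. With the replicate block the genes called were 433 in her3 against mismatch morpholino, 1917 in her3 morpholino against WIK and 583 for the difference between the ages, and xdh at 24 hpf was -0.53 (limma adjusted p = 0.087).

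Leaving out 1 library gave 1523 to 3394 genes and 1 to 2 members (knockout, 24 hpf), 1418 to 1663 and 1 to 3 (knockout, 72 hpf), 327 to 817 genes (her3 against mismatch morpholino), 1022 to 5254 and 0 to 2 (her3 morpholino against WIK), 1048 to 2943 genes (mismatch morpholino against WIK), 559 to 1228 and 2 to 3 (difference between the ages) and 1126 to 1869 and 1 (knockout less morpholino effect).

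Signs turned, all uncalled, as follows. With pseudocount 1, ltk was -0.029 (knockout, 24 hpf), -0.021 (her3 morpholino against WIK) and -0.0058 (knockout less morpholino effect). With plain totals ltk was -0.00085, aox5 0.043 and EDNRB 0.019 (knockout, 24 hpf), tfec 0.0039 (knockout, 72 hpf), and xdh 0.036 and gch2 0.027 (her3 against mismatch morpholino). With median-of-ratios scaling tfec was 0.0077 (knockout, 72 hpf), gch2 -0.0067 (her3 morpholino against WIK) and pnp4a -0.018 (mismatch morpholino against WIK). Without the 4 libraries ltk was -0.40 (knockout, 24 hpf), -0.30 (her3 morpholino against WIK), -0.29 (mismatch morpholino against WIK) and -0.39 (knockout less morpholino effect), gch2 0.064 (her3 against mismatch morpholino) and tfec -0.072 (mismatch morpholino against WIK).

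Leaving out 1 library, ltk ran from -0.40 to 0.49, aox5 from -0.065 to 0.035 and EDNRB from -0.22 to 0.068 (knockout, 24 hpf), and tfec from -0.059 to 0.057 (knockout, 72 hpf). In her3 against mismatch morpholino ltk ran from -0.22 to 0.051, xdh from -0.20 to 0.075 and gch2 from -0.11 to 0.047. In her3 morpholino against WIK ltk ran from -0.39 to 0.50 and gch2 from -0.0030 to 0.058. In mismatch morpholino against WIK ltk ran from -0.35 to 0.55, pnp4a from -0.12 to 0.16, tfec from -0.072 to 0.17 and gch2 from -0.017 to 0.14. For the difference between the ages ltk ran from -0.84 to 0.054 and EDNRB from -0.19 to 0.11, and for the knockout less morpholino effect ltk ran from -0.36 to 0.54 and pts from -0.19 to 0.034. Depth limits ltk most, with at most 30 reads in a library.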
